A study of Mus musculus with 8 samples.

Results

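The 141 transcripts described here were higher in mouse primordial germ cells after 3 days of culture than in freshly taken cells, and were still higher in embryonic germ (EG) cells. Of 14030 genes with a named probe measured on all 8 arrays, these 141 (1.00%) were the ones whose lowest array after explant lay at least 1.5 log2 units, or 2.83-fold, above the higher of both arrays of freshly taken cells, and whose mean in EG cells was at least 5 on the log2 scale, an intensity of 32. The distance between those arrays is called the gap below. The genes were chosen by these 2 measured values, the gap and the mean in EG cells, so every value set against the fresh cells is a description, with no test.

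Primordial germ cells are the embryonic precursors of eggs and sperm. The study placed mouse cells with a Nanog-GFP reporter in 4 groups of 2 arrays each: fresh germ cells (E11.5 PGC, named for the embryo's age in days), their culture at 3 days (Day3) and at 6 days (Day6), and EG cells, a pluripotent line obtained from germ cells. Per the series' design text, candidate pluripotent cells were sorted by flow cytometry while in culture. In the labels, every group except E11.5 PGC is named for a mix of 1 µM PD325901, which blocks MEK, 3 µM CHIR99021, which blocks GSK3, and 250 nM A83-01, which blocks Activin and Nodal receptors. The protocol text stands on the E11.5 PGC samples as well, so it does not tell which cells met the inhibitors. The medium was Knockout DMEM with 15% serum replacement, the cytokine LIF and the growth factor bFGF. The labels do not say whether the arrays of a group came from separate cultures or animals, or how many EG lines there were, and p-values therefore measure only the spread between these arrays, which may be technical. The array names fall into 2 series: the first holds both EG arrays and replicate 1 of each other group, and the second holds replicate 2 of each other group. In bulk RNA, fewer cells of a type and less RNA per cell cannot be told apart.

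As background, germ cells at this age carry a genome stripped of most DNA methylation and keep much of the pluripotency network. In culture with LIF and kinase inhibitors a minority can return to a state close to that of embryonic stem cells, in which LIF acts through STAT3 and Klf4, and blocked MEK signalling protects the naive state. Explant also brings new substrates, rich medium, oxygen and attachment, to which stress, detoxification and cytoskeletal genes are known to respond.

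Promoters were searched for short motifs of regulators that act on genes of these classes. RefSeq promoter windows on build GRCm38.p6, from 250 bases before to 50 after the gene start, were matched by symbol for 118 of the 141 genes and 11278 of all genes measured. The stretches printed here come from p53 targets (Ccng1, Ddit4l), a pluripotency factor (Klf4), stress and metabolic genes (Nupr1, Fabp3, Upp1) and a target of the YAP pathway (Amotl2), each read on the gene's own strand with the matched letters in capitals. The Ccng1 and Ddit4l stretches hold a p53 decamer (one of the paired elements that p53 binds), Klf4 an E-box, Nupr1 and Fabp3 a CARE (the element bound by ATF4) on the opposite strand, Upp1 an AP-1 site, and Amotl2 a TEAD site on the opposite strand.
Ccng1 (chr11:40755432-40755501, minus strand): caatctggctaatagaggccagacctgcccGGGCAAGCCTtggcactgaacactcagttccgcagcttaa
Ddit4l (chr3:137623552-137623621, plus strand): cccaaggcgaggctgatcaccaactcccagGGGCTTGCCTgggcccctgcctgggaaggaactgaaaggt
Klf4 (chr4:55532622-55532687, minus strand): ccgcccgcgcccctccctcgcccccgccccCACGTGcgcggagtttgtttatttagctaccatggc
Nupr1 (chr7:126625543-126625610, minus strand): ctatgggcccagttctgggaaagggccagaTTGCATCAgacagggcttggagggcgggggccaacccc
Fabp3 (chr4:130308657-130308724, plus strand): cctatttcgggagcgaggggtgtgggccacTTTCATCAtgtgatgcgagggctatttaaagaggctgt
Upp1 (chr11:9117933-9117999, plus strand): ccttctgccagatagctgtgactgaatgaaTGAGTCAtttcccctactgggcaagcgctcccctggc
Amotl2 (chr9:102717709-102717774, plus strand): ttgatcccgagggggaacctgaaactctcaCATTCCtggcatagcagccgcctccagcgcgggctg

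No motif stood in most of the promoters. On both strands, the p53 decamer was found in 11.02% of the 118 promoters against 7.15% of all promoters in the table, the TEAD site GGAATG in 18.6% against 12.5%, and the AP-1 site TGANTCA in 8.47% against 6.14%. The E-box CACGTG was found in 5.08% against 9.42%, the CRE TGACGTCA in 2.54% against 2.87%, the CARE TGATGNAA in 3.39% against 2.56% and the STAT site TTCCNGGAA in 0.847% against 1.15%. TATAAA was found in 12.7% against 9.71% and CCAAT in 36.4% against 38.2%. The CLEAR core TCACGTGA, which contains the E-box, and the ESRRB site TCAAGGTCA were found in none of the 118, against 1.66% and 0.222% of all. Motif letters are a description of the window and not sites of binding. GC content had a median of 59.7% in both sets, and the CpG ratio (observed over expected) a median of 0.62 against 0.71. Of the 118 genes, 9 (7.63%) lay on the X chromosome, against 3.63% of the 11278: Atg4a, Dcaf12l1, Diaph2, Eras, Nono, Pgrmc1, Pir, Prps1 and Wdr45. The promoter set is incomplete, as it places no gene on chromosome 18, so these shares hold for the genes with a promoter only.

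Arrays measured 21126 to 22404 of their 23473 probes, and the authors' scaling left every median close to 20. The 27 measured genes of a germ cell identity list, none of them among the 141, summed to 24572 and 18123 (E11.5 PGC), 13285 and 15846 (Day3), 5575 and 8308 (Day6), then 6533 and 5751 (EG). The 16 measured genes of a fibroblast and mesenchyme list summed to 524 and 638 (E11.5 PGC), 1347 and 827 (Day3), 4731 and 903 (Day6), then 1882 and 1001 (EG), so Day6 replicate 1 stood apart. Vim, S100a4 (itself one of the 141) and Thy1 carried most of that sum. They read 1546, 1335 and 747 there, against 588, 13.2 and 10.7 on the other Day6 array. Twist1 (82.6 and 84.1) and Pdgfrb (41.9 and 44.2) were level at Day6. Dcn (173) and Col3a1 (137) were highest on Day3 replicate 2. Sums of 13 gonadal somatic markers were 96.2 and 123 for E11.5 PGC, 92.8 and 104 for Day3, 155 and 130 for Day6 and 262 and 269 for EG. Sums of 12 blood markers were 227 and 281 (E11.5 PGC), 236 and 213 (Day3), 448 and 321 (Day6), then 628 and 699 (EG). Both sums were highest on the EG arrays, with Amhr2, Cd68 and Laptm5 carrying most of them there, while Ptprc, a defining blood marker, stayed between 2.81 and 5.74. Sums ran from 172 to 589 for endothelium and from 123 to 239 for extraembryonic markers, and no list marker stood at 0. The part of such cells in the members' values was not tested.

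Across the 141 genes the median distance from E11.5 PGC was 2.82 log2 units at Day3, 3.61 at Day6 and 3.61 in EG, where the medians of all probes were -0.13, -0.16 and -0.16. The distances ran between 1.58 and 5.74 at Day3, between 1.70 and 6.65 at Day6 and between 1.69 and 7.76 in EG. The rule fixes that these distances are large. It does not fix which later group is highest, though its floor on the mean in EG leaves out genes dim there. On this the genes differed. In 25 genes the gap was at least 3 log2 units and in 60 it was under 2. In 22 genes (15.6%) both E11.5 PGC arrays lay below the lower quartile of their array, so for these a fold set against the fresh cells depends on how the dimmest spots were treated. Dnmt3l, S100a4, Nupr1 and Patl2, which had 4 of the 5 largest distances in EG, are among them. The heat map of all 141 genes shows the step from the first 2 columns to the rest.

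**Figure D1:**
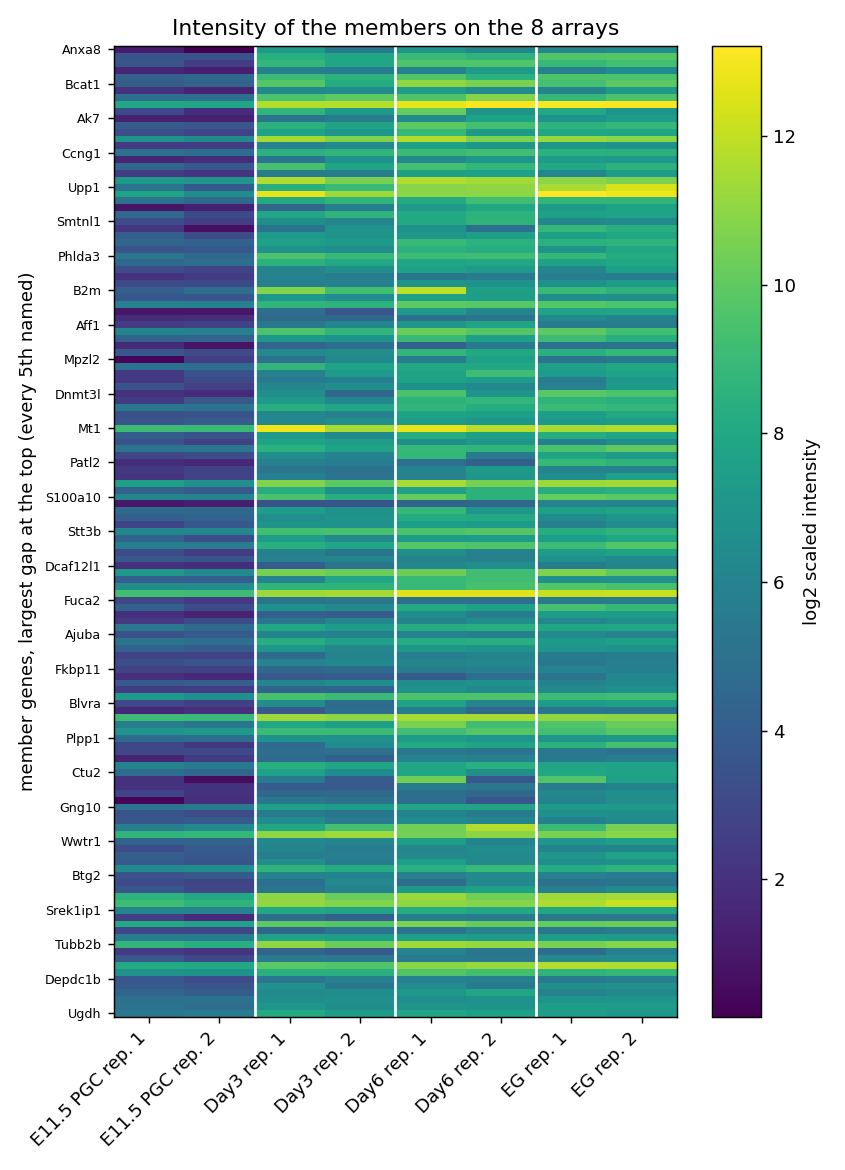
Log2 scaled intensity of the 141 genes (rows, largest gap at the top, every 5th named) on the 8 arrays (columns, in culture order; white lines part the groups). Every row is darker in both E11.5 PGC columns, as the rule requires, and single bright cells at Day6 replicate 1 mark genes such as B2m and S100a4 whose replicates disagree.

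Klf4, Tbx3, Fgf4, Eras and Pramel7 are known from pluripotent cells, and each was brighter on both Day6 arrays than on either Day3 array. Klf4, a transcription factor of the naive state that LIF drives through STAT3, read 55.9 and 49.2 for E11.5 PGC, 326 and 234 for Day3, 859 and 774 for Day6 and 550 and 846 for EG. The Day6 and EG arrays were all above both Day3 arrays, and Day6 and EG overlapped. Tbx3, a T-box factor of stem cell self-renewal, read 4.94 and 10.7 (E11.5 PGC), 59.5 and 150 (Day3), 206 and 580 (Day6), then 160 and 210 (EG). Replicate 2 was the higher array in every group, and the lower Day6 array stood above the higher Day3 array. Fgf4, a growth factor that pluripotent cells secrete and that acts through MEK, read 1.82 and 2.46 for E11.5 PGC, 21.7 and 53.5 for Day3, 149 and 257 for Day6 and 152 and 210 for EG. Its E11.5 PGC arrays were near the dimmest values and its Day6 and EG arrays overlapped well above Day3. These 3 were the members among 30 measured genes of a pluripotency list. Eras, a Ras relative of mouse embryonic stem cells that stood in no list, read 7.68 and 4.58 (E11.5 PGC), 26.0 and 87.4 (Day3), 287 and 221 (Day6), then 378 and 649 (EG), and its 3 later groups did not overlap. Pramel7, a PRAME family member that favours the naive state in mouse stem cells, read 4.99 and 8.23 for E11.5 PGC, 45.3 and 55.5 for Day3, 209 and 169 for Day6 and 49.8 and 141 for EG. It was higher at Day6 than at either Day3 or EG, although its probe may also see close relatives.

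The other 27 genes of the pluripotency list had a median log2 difference of 0.08 for Day6 over Day3. In limma 0 of them were called there with or without the array series as a block. At an unadjusted p under 0.05, 3 were higher and 2 lower, where 872 and 911 of 20015 probes were. Against E11.5 PGC, 2 of them were called higher at Day3 (background 1.33% of probes higher, 0.754% lower), 6 higher and 2 lower at Day6 (4.34% and 4.28%) and 5 higher and 1 lower in EG (5.57% and 5.61%), at an adjusted p under 0.05 in limma. With array series blocked, these counts were 7 higher and 2 lower (Day3), 12 higher and 4 lower (Day6), and 11 higher and 2 lower (EG). Of all probes, the blocked model called 4.34% higher and 4% lower (Day3), 9.5% and 14.3% (Day6), and 9.24% and 14.4% (EG). Stat3, the signal transducer of LIF, was one of those called at Day3 and missed the rule by little, with a gap of 1.48; it read 22.8 and 28.0 (E11.5 PGC), 108 and 91.5 (Day3), 137 and 103 (Day6), then 87.9 and 78.2 (EG). Nanog, the gene the reporter is named for, was far from the rule with a gap of 0.51; it already read 1520 and 1707 in E11.5 PGC. Of 23 measured genes of the LIF and STAT3 pathway, Klf4 and Sgk1 were members. Sgk1, a kinase induced by serum and glucocorticoids, read 150 and 100 for E11.5 PGC, 687 and 536 for Day3, 758 and 780 for Day6 and 561 and 590 for EG. Its Day6 arrays stood above the other later arrays.

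Of 14 measured genes of DNA methylation, both members act in de novo methylation. Dnmt3b, the methyltransferase of early embryonic cells, read 70.6 and 57.4 (E11.5 PGC), 725 and 415 (Day3), 1264 and 840 (Day6), then 974 and 612 (EG). Replicate 1 was the higher array in each group and the 3 later groups overlapped in part. Dnmt3l, a cofactor with no catalytic activity of its own, read 4.20 and 3.38 for E11.5 PGC, 96.7 and 22.5 for Day3, 717 and 122 for Day6 and 902 and 738 for EG. The later groups followed one another with no overlap, while the arrays within Day3 and within Day6 differed widely and those of EG did not. Dnmt3a read 61.4 and 77.0 (E11.5 PGC), 12.6 and 36.8 (Day3), 19.8 and 29.0 (Day6), then 131 and 115 (EG), which put both culture days below E11.5 PGC and EG above it, though no Dnmt3a difference passed the test without the block. Of the other 12 genes of the DNA methylation list, Uhrf1, which recruits the maintenance enzyme, was called higher than E11.5 PGC at Day6 (log2 4.05 ± 0.49 SE, adjusted p = 0.0051) and in EG (3.73 ± 0.49, adjusted p = 0.00661), and Tet3, Hells and Mbd3 were called lower in EG. With the block, 2 of the 12 were called higher and 1 lower (Day3), 2 higher and 3 lower (Day6), and 4 in each direction (EG). For each model, the shares of all probes called are those given above with the pluripotency list.

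The p53 pathway gave 4 members among 29 measured targets. Ccng1, a cyclin that p53 induces, read 32.3 and 29.2 for E11.5 PGC, 366 and 408 for Day3, 528 and 604 for Day6 and 367 and 361 for EG. Its replicates lay close together, and Day6 stood above both Day3 and EG. Phlda3, a p53-induced brake on Akt, read 42.1 and 23.5 (E11.5 PGC), 759 and 482 (Day3), 542 and 593 (Day6), then 458 and 293 (EG). Day3 and Day6 overlapped, and both EG arrays were below them. Ddit4l, an inhibitor of mTORC1 signalling, read 16.9 and 8.87 for E11.5 PGC, 150 and 121 for Day3, 127 and 191 for Day6 and 194 and 244 for EG, with EG above Day6 and Day3. Btg2, an antiproliferative gene, read 10.8 and 14.6 (E11.5 PGC), 63.3 and 65.1 (Day3), 56.7 and 84.3 (Day6), then 56.9 and 44.7 (EG), with EG below Day3. Of the other 25 targets, 4 were called higher than E11.5 PGC at Day3 (Zmat3, Fas, Eda2r and Plk2), 7 at Day6 and 7 in EG, and none was called lower, beside the background shares given above. In the model blocked by array series, 11, 14 and 10 of the 25 were called higher and 0, 1 and 1 lower at Day3, at Day6 and in EG (all probes, 4.34%, 9.5% and 9.24% higher and 4%, 14.3% and 14.4% lower). Eda2r, a death-domain receptor, had log2 differences of 3.21 ± 0.40 (SE) at Day3, 2.98 ± 0.40 at Day6 and 1.84 ± 0.40 in EG. Cdkn1a, the inhibitor of cyclin-dependent kinases that is the best known target, read 71.6 and 31.1 for E11.5 PGC, 357 and 209 for Day3, 361 and 219 for Day6 and 115 and 122 for EG. It was called at Day6 (adjusted p = 0.0216) but not in EG (adjusted p = 0.132), and its gap of 0.68 kept it out.

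**Figure D2:**
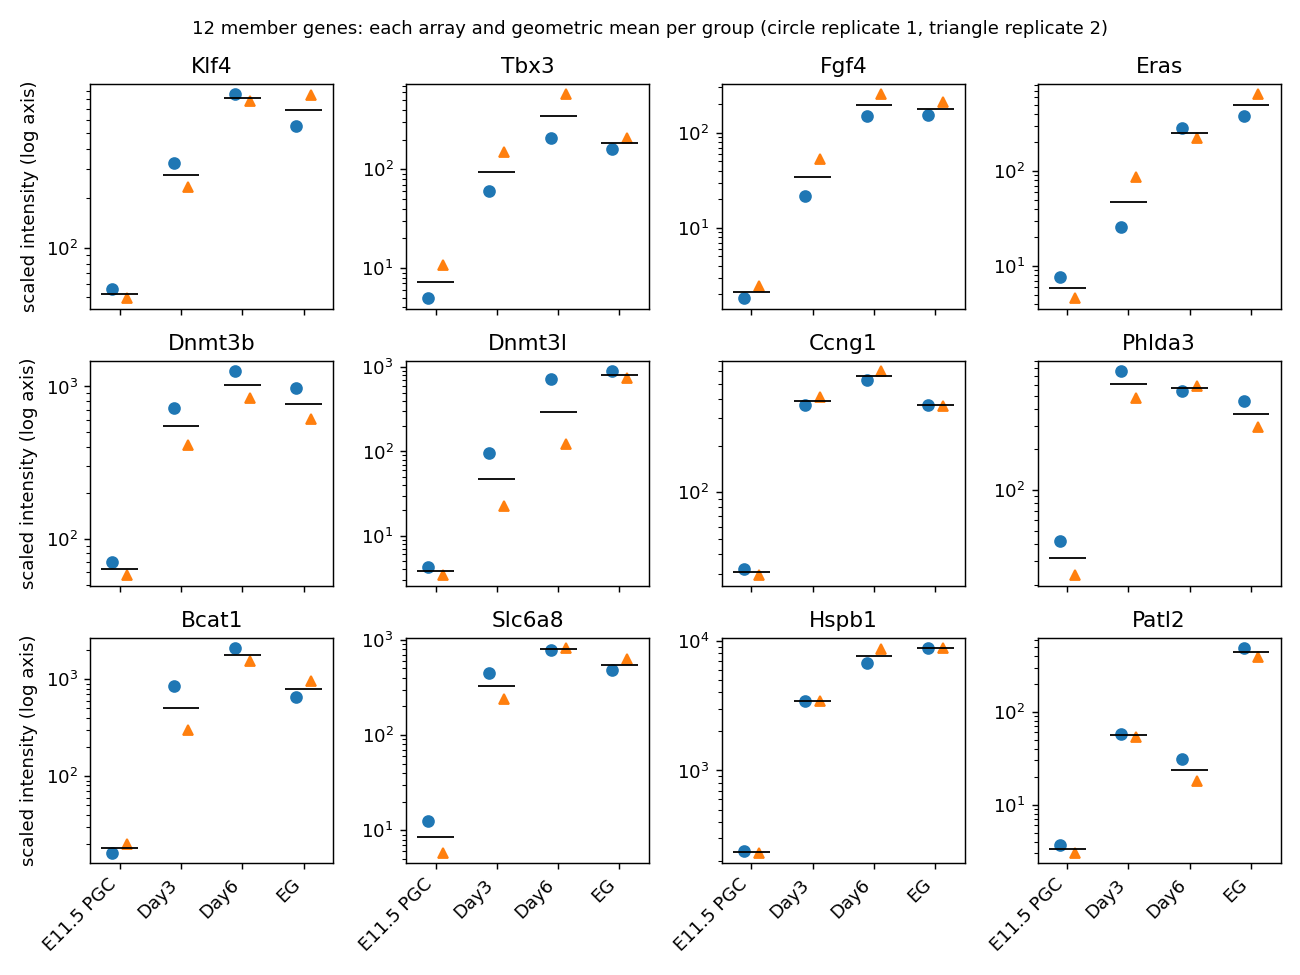
Scaled intensity (log axis, a scale of its own in each panel) of 12 genes on each array, with circles for replicate 1, triangles for replicate 2 and a bar at the geometric mean of each group. Eras, Dnmt3l and Hspb1 step up through Day3, Day6 and EG, though Hspb1 rises little after Day6. Bcat1, Slc6a8 and Ccng1 are highest at Day6, Phlda3 is not above its Day3 mean afterwards, and Patl2 dips at Day6 and is highest in EG.

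Several metabolic genes had large gaps. Slc6a8, the creatine transporter, read 12.5 and 5.84 (E11.5 PGC), 452 and 239 (Day3), 785 and 818 (Day6), then 481 and 627 (EG). Bcat1, the cytosolic enzyme that moves amino groups off branched-chain amino acids, read 16.3 and 19.7 for E11.5 PGC, 859 and 302 for Day3, 2094 and 1543 for Day6 and 649 and 968 for EG. Bcat1 and Slc6a8 were highest at Day6, clear of the Day3 and EG arrays. Bcat1 and Cth were the members among 29 genes of amino acid and one-carbon metabolism, and Cth, which releases cysteine from cystathionine, read 21.8 and 18.5 (E11.5 PGC), 185 and 156 (Day3), 520 and 359 (Day6), then 361 and 399 (EG). Its Day6 and EG arrays overlapped above Day3. Upp1, the enzyme that splits uridine, read 36.9 and 14.5 for E11.5 PGC, 335 and 504 for Day3, 1885 and 2099 for Day6 and 2972 and 5525 for EG, so each later group cleared the one before it. Prps1, which makes the ribose donor of nucleotides, read 54.1 and 78.4 (E11.5 PGC), 249 and 665 (Day3), 1396 and 3402 (Day6), then 536 and 1500 (EG). Its replicate 2 (in EG, the second array) was the brighter in all groups and Day6 and EG overlapped. Slc2a3, a glucose transporter, was the one member among 23 glycolysis genes and read 574 and 401 for E11.5 PGC, 2195 and 1735 for Day3, 2090 and 1853 for Day6 and 3174 and 4384 for EG. Day3 and Day6 overlapped and both EG arrays stood above them.

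Lipid-handling genes did not share a course. Fabp3, a carrier of fatty acids and the one member among 31 genes of lipid uptake and synthesis, read 214 and 93.0 (E11.5 PGC), 6681 and 2594 (Day3), 1943 and 1948 (Day6), then 9507 and 7574 (EG). It was lower at Day6 than at Day3 or in EG. Cidea, a lipid droplet protein, read 5.29 and 4.28 for E11.5 PGC, 51.4 and 52.2 for Day3, 193 and 183 for Day6 and 73.7 and 160 for EG, with Day6 above the other groups. Plin3, a coat protein of lipid droplets, read 17.8 and 23.4 (E11.5 PGC), 530 and 361 (Day3), 804 and 366 (Day6), then 759 and 720 (EG), and its Day6 arrays spanned those of EG. Aqp3, a channel for water and glycerol, read 31.3 and 30.2 for E11.5 PGC, 726 and 956 for Day3, 786 and 1753 for Day6 and 468 and 747 for EG. The Day3 and Day6 arrays of Aqp3 overlapped and so did those of Day3 and EG.

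The redox list held 2 members and the integrated stress response list held 1, while Hspb1 and Hspb8 stood in no list and are named for their large gaps. Hspb1, a small heat shock protein, read 240 and 233 (E11.5 PGC), 3407 and 3422 (Day3), 6786 and 8577 (Day6), then 8746 and 8789 (EG). The replicates lay close together and each later group cleared the one before, EG over Day6 by a mean log2 difference of only 0.20 ± 0.26 (SE). Hspb8, another of that family, read 16.2 and 12.6 for E11.5 PGC, 366 and 219 for Day3, 957 and 669 for Day6 and 382 and 455 for EG, highest at Day6. Gsta4, a glutathione transferase that clears lipid aldehydes, read 607 and 566 (E11.5 PGC), 2480 and 2807 (Day3), 6103 and 6394 (Day6), then 4332 and 4608 (EG). Its groups were all apart, with Day6 on top. Mt1, a metallothionein that binds zinc and copper, read 555 and 505 for E11.5 PGC, 7451 and 2857 for Day3, 7058 and 3607 for Day6 and 2937 and 3293 for EG. The first array was the brighter of the pair on both culture days, and the Day3 arrays spanned those of EG. Gsta4 and Mt1 were the members among 28 redox and NRF2 target genes. Against E11.5 PGC, the other 26 were called in both directions: 1 lower at Day3, 6 higher and 3 lower at Day6, and 2 higher and 2 lower in EG. The block gave 6 higher and 2 lower (Day3), 12 higher and 5 lower (Day6), and 6 higher and 3 lower (EG). For both models the shares of all probes called against E11.5 PGC are given above. Nupr1, a nuclear protein induced in the integrated stress response, read 4.27 and 1.61 (E11.5 PGC), 36.7 and 111 (Day3), 115 and 31.1 (Day6), then 460 and 330 (EG). Both EG arrays were above all Day3 and Day6 arrays, which overlapped widely. It was the one member among 22 genes of that response, and Chac1, a glutathione-degrading enzyme induced by ATF4, stood just outside the rule.

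Also grouped here, after their values were seen, were Pir, Ephx1, Cbr3, Blvra, Blvrb, Ptgr1, Gstp2, Gpx7, Ugdh and Dcxr, most of them metabolic enzymes. Pir, an iron-binding nuclear protein, read 5.17 and 5.49 for E11.5 PGC, 62.5 and 79.1 for Day3, 189 and 136 for Day6 and 136 and 115 for EG. Ephx1, which opens epoxides, read 9.69 and 7.17 (E11.5 PGC), 209 and 129 (Day3), 475 and 156 (Day6), then 238 and 232 (EG). Pir was highest at Day6, but its lower Day6 array (135.9) barely cleared its higher EG array (135.8). The Day6 arrays of Ephx1 stood on either side of EG. The 2 biliverdin reductases differed in spread: Blvrb read 43.0 and 34.4 for E11.5 PGC, 326 and 230 for Day3, 437 and 306 for Day6 and 530 and 453 for EG, and Blvra read 7.78 and 6.20 (E11.5 PGC), 98.2 and 27.7 (Day3), 205 and 68.8 (Day6), then 162 and 185 (EG). On the culture days Blvra was brighter on replicate 1, by a wide margin, while its EG arrays lay close. Ptgr1, which inactivates prostaglandins and leukotrienes, read 144 and 85.9 for E11.5 PGC, 1503 and 1236 for Day3, 1257 and 591 for Day6 and 1664 and 1005 for EG, and all 3 later groups overlapped. Lysosomal genes gave 2 members among 35: Cd63, a tetraspanin of late endosomes, read 120 and 80.7 (E11.5 PGC), 2849 and 1629 (Day3), 3239 and 1592 (Day6), then 2319 and 1883 (EG), and Gusb, beta-glucuronidase, read 11.97 and 14.9 for E11.5 PGC, 77.4 and 96.2 for Day3, 168 and 127 for Day6 and 140 and 168 for EG. The later groups of Cd63 overlapped, and both Day6 and EG cleared Day3 for Gusb.

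The annexin and S100 list gave 4 members of 19 measured, the largest share of the 20 pathway lists. Anxa8 had the largest gap of all, 4.33, and read 2.19 and 1.11 (E11.5 PGC), 158 and 44.2 (Day3), 125 and 71.2 (Day6), then 73.3 and 93.7 (EG). Anxa1 read 8.53 and 3.70 for E11.5 PGC, 422 and 149 for Day3, 1101 and 120 for Day6 and 251 and 119 for EG. Both are annexins, which bind membranes in the presence of calcium, and in both all later groups overlapped. S100a10, the partner of annexin A2, read 70.1 and 67.1 (E11.5 PGC), 699 and 334 (Day3), 1101 and 374 (Day6), then 1138 and 939 (EG). S100a4, a calcium-binding protein of motile mesenchymal cells, read 4.04 and 1.48 for E11.5 PGC, 44.3 and 15.6 for Day3, 1335 and 13.2 for Day6 and 808 and 190 for EG. Replicate 1 was the brighter array of these 4 genes in E11.5 PGC, Day3 and Day6, and for S100a4 the other Day6 array was the dimmest of the 6 later arrays. S100a4 is itself one of the fibroblast markers whose sum stood apart on Day6 replicate 1, and the part of those cells in these values was not tested.

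B2m, the light chain of MHC class I, was the one member among 18 genes of antigen presentation and interferon response and read 17.0 and 29.3 (E11.5 PGC), 1727 and 610 (Day3), 3942 and 191 (Day6), then 504 and 385 (EG). Pcolce, an enhancer of collagen processing named here after its values were seen, read 7.52 and 9.73 for E11.5 PGC, 97.0 and 60.7 for Day3, 451 and 48.6 for Day6 and 219 and 142 for EG. Both again were brightest on Day6 replicate 1, the array with the highest fibroblast sum, while the other Day6 array was the dimmest after explant. Differences over 2 log2 units between the arrays of a group occurred for 5 members at Day6 (S100a4, B2m, Anxa1, Pcolce and Dnmt3l), against 1 each in E11.5 PGC (Mpzl2), Day3 (Dnmt3l) and EG (S100a4 at 2.09).

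Members made up 6.06% of the matrix and integrin list, 4.76% of the epithelial adhesion list and 3.85% of the actin and YAP list. Of all genes measured, 1.00% were members. Itga6, a subunit of the laminin receptor, read 9.84 and 11.2 (E11.5 PGC), 62.1 and 76.9 (Day3), 67.1 and 73.6 (Day6), then 42.7 and 55.3 (EG), and Lama5, a laminin chain, read 9.42 and 15.7 for E11.5 PGC, 70.5 and 49.0 for Day3, 72.7 and 87.9 for Day6 and 63.1 and 66.5 for EG. They were 2 of 33 matrix and integrin genes, and the later arrays lay between 42.7 and 76.9 for Itga6. Spint1, an inhibitor of surface proteases and the one member among 21 epithelial adhesion genes, read 19.6 and 9.54 (E11.5 PGC), 171 and 82.3 (Day3), 167 and 166 (Day6), then 178 and 234 (EG). Amotl2, an angiomotin that YAP induces and the one member among 26 actin and YAP genes, read 7.25 and 13.3 for E11.5 PGC, 119 and 108 for Day3, 178 and 159 for Day6 and 56.9 and 92.0 for EG. Day6 was above Day3, and Day3 above EG, with no overlap. Sgce, a paternally expressed sarcoglycan and the one member among 30 imprinted genes, read 4.43 and 7.15 (E11.5 PGC), 54.6 and 34.7 (Day3), 61.7 and 136 (Day6), then 90.8 and 184 (EG). Secreted or structural genes with large gaps included Htra1, a serine protease, which read 23.4 and 13.2 for E11.5 PGC, 673 and 229 for Day3, 635 and 451 for Day6 and 254 and 393 for EG, and Mylpf, a myosin light chain of fast muscle, which read 155 and 125 (E11.5 PGC), 3207 and 1494 (Day3), 3236 and 2683 (Day6), then 1936 and 1611 (EG). The brightest array of each was a culture-day array of replicate 1. Saa3, an acute-phase protein whose probe may see relatives, read 4.22 and 2.60 for E11.5 PGC, 82.7 and 88.1 for Day3, 159 and 87.2 for Day6 and 64.0 and 145 for EG, with overlap among all later groups.

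In all, 29 of 473 list genes measured were members (6.13%, where 1.00% of all genes were), and 112 members stood in no list. Lists of MEK/ERK targets (17 genes measured), Wnt targets (15), the cell cycle (25) and germ cell identity (27) held none. In the last list 1 gene was called lower than E11.5 PGC at Day3, 10 at Day6 and 11 in EG, and none higher. Of all probes, 0.754%, 4.28% and 5.61% were called lower. With the block 8, 13 and 14 of the list were called lower, against 4%, 14.3% and 14.4% of all probes. The lists were drawn up with earlier results of these data known, so their shares describe the members and test nothing.

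**Figure D3:**
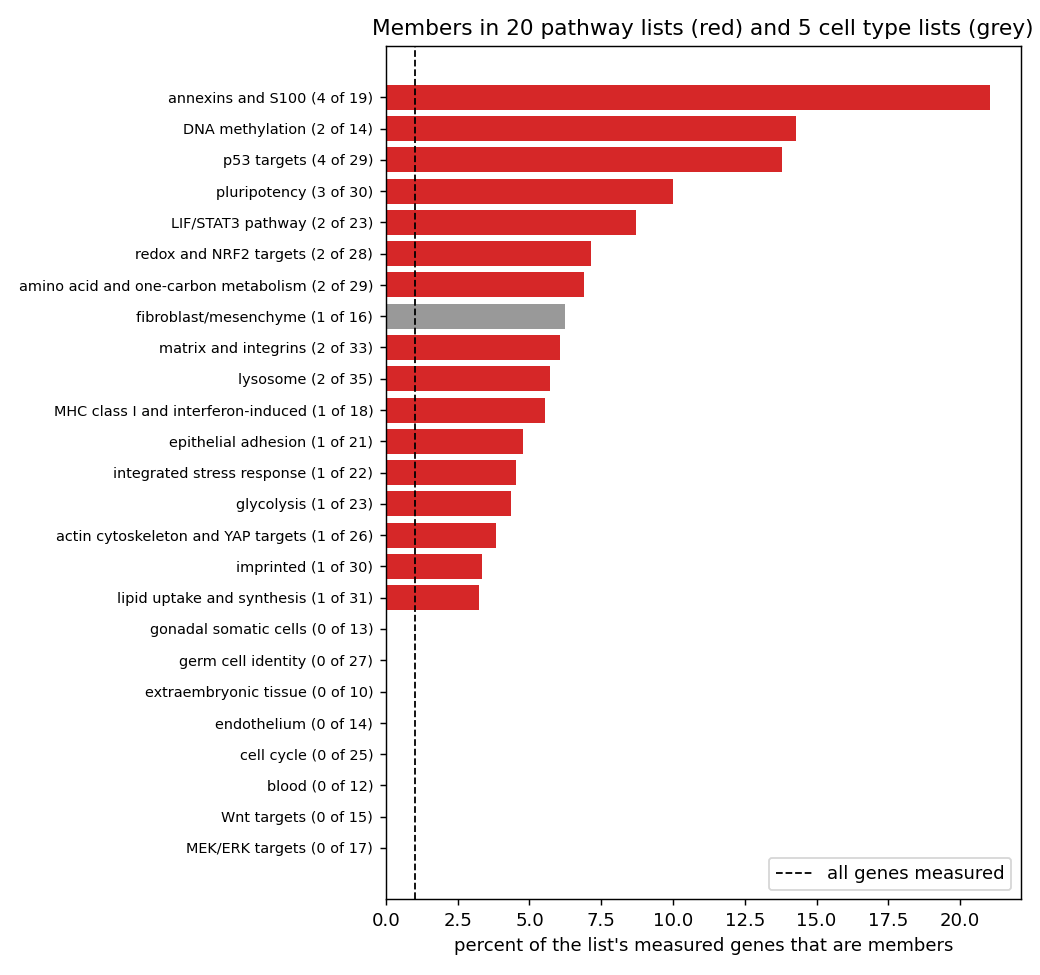
Share of each list's measured genes that are members (bars, in percent; red for 20 pathway lists, grey for 5 cell type lists), with the share over all genes measured as a dashed line. The annexin and S100 list stands highest with 4 of 19, and 4 pathway lists and 4 cell type lists are at 0.

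How the gains went on after Day3 is not set by the rule, although it takes only genes raised on every later array. Comparing Day6 with Day3, the members had a median log2 difference of 0.59 and 122 of the 141 were above 0, while all 20015 probes tested had a median of -0.05 and 45.5% above 0. For 71 members (50.4%) both Day6 arrays stood above both Day3 arrays, against 13.7% of all probes, and for 8 (5.67%) both stood below, against 16.9%. Within the first array series the median was 0.62 and within the second 0.67, where all probes had -0.11 and 0.02. The rule treats the Day3 and Day6 arrays alike. The probes set beside the members were not chosen for a lasting rise, so the distance between these shares is a description.

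No single member passed the test of Day6 against Day3 in limma, and neither did any other probe (0% of 20015 higher and 0% lower). At an unadjusted p under 0.05 there were 49 members higher and 1 lower, of 872 and 911 probes. With the array series as a block, 19 members were called higher and none lower, against 0.974% and 0.829% of all probes. They were Fgf4, Fez1, Ly75, Tubb2a, Ubd, Smtnl1, Hap1, Tbx3, Aff1, Prune2, Tstd3, Klf4, Hspb8, Cth, Ooep, Pgrmc1, Gsta4, Hspb1 and Fkbp11. Fgf4 had a log2 difference of 2.53 ± 0.50 (SE), with an adjusted p of 0.145 without the block and 0.0243 with it. For Klf4 the difference was 1.56 ± 0.32 (adjusted p = 0.161, and 0.0457 with the block). Tbx3 differed by 1.87 ± 0.66 (adjusted p = 0.435, and 0.0282 with the block). These blocked calls rested on the full set of culture arrays: without any one Day3 or Day6 array the blocked count was 0.

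The members with the highest and lowest differences came from several of the groups above. Dnmt3l (2.66 ± 0.91), Fgf4, Fez1 (2.45 ± 0.51), Prps1 (2.42 ± 0.70), Eras (2.40 ± 0.60) and S100a4 (2.34 ± 1.94) were highest for Day6 over Day3. The size of the error shows how far the replicates of S100a4 lay apart, and without Day6 replicate 1 its difference was -0.99. Fez1, an adaptor of axonal transport, read 1.93 and 1.89 (E11.5 PGC), 29.2 and 11.9 (Day3), 148 and 70.4 (Day6), then 206 and 226 (EG), and each later group cleared the one before. At the low end stood Patl2 (-1.25 ± 0.33), Fabp3 (-1.10 ± 0.54), Kdelr3 (-0.98 ± 0.60), Serping1 (-0.80 ± 0.40), Ptgr1 (-0.66 ± 0.47) and Arhgap9 (-0.47 ± 0.29). Serping1, the inhibitor of complement C1, read 10.9 and 6.66 for E11.5 PGC, 213 and 173 for Day3, 96.8 and 125 for Day6 and 55.3 and 102 for EG. It was brightest at Day3, with Day6 below and EG overlapping Day6.

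**Figure D4:**
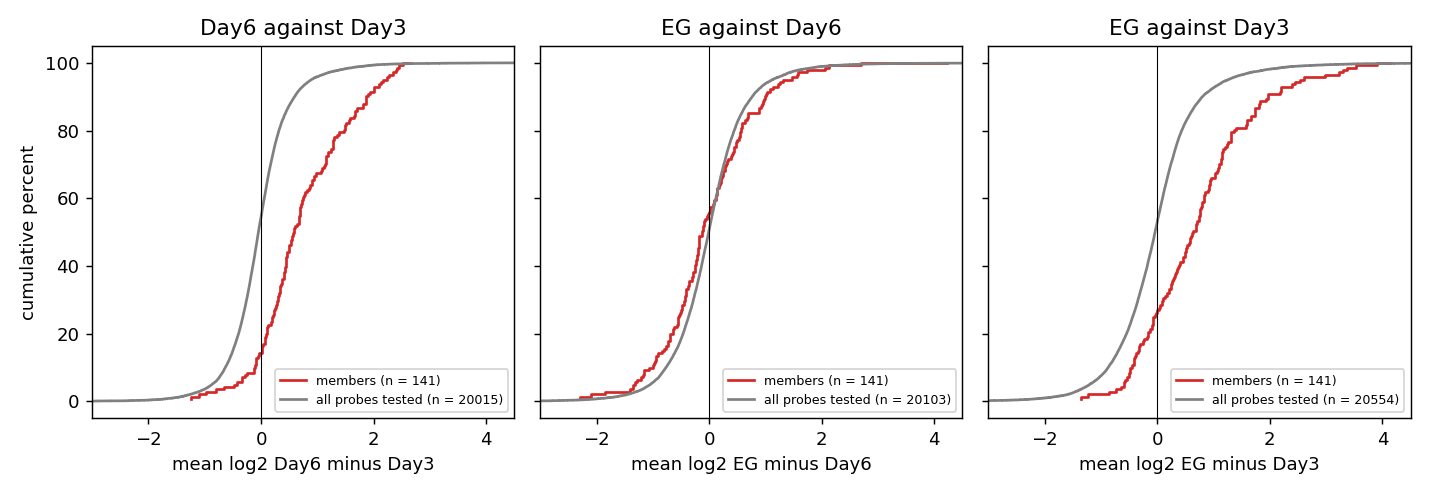
Cumulative percent of the 141 members (red) and of all probes tested (grey) by their mean log2 difference, for Day6 minus Day3, EG minus Day6 and EG minus Day3. The red line lies to the right of the grey one in the outer panels, with medians of 0.59 and 0.68, and along it in the middle panel, with a median of -0.11.

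EG and Day6 differed little in the median of the members. The median difference of EG minus Day6 was -0.11 (all 20103 probes, -0.01), and 63 of the 141 were above 0. Both EG arrays stood above both Day6 arrays for 34 members (24.1%, against 23.4% of probes) and below for 46 (32.6%, against 22.8%). Patl2 alone was called higher and no member lower in limma (0.139% and 0.0298% of probes); at an unadjusted p under 0.05 there were 18 higher and 15 lower, of 1420 and 1198 probes. The rule's floor on the mean in EG leaves out genes that are dim there, so the EG comparisons are not wholly free of it. Patl2, an RNA-binding protein known from oocytes, read 3.63 and 3.04 (E11.5 PGC), 57.1 and 54.2 (Day3), 30.7 and 17.9 (Day6), then 487 and 395 (EG), a log2 difference of 4.23 ± 0.33 (adjusted p = 0.0143). The EG arrays were far above all others and Day6 was below Day3. The call was lost without either E11.5 PGC, Day6 or EG array, while the direction stayed.

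With the block, 2 members were called higher in EG than at Day6, Patl2 and the uncharacterised transcript 2410080I02Rik, and 2 lower, Smtnl1 and Aff1 (1.25% and 0.716% of probes). The transcript 2410080I02Rik read 1.99 and 2.36 for E11.5 PGC, 11.23 and 11.48 for Day3, 19.6 and 22.1 for Day6 and 61.0 and 63.0 for EG. Smtnl1, a smoothelin-like protein of muscle, read 8.89 and 5.95 (E11.5 PGC), 101 and 67.4 (Day3), 276 and 403 (Day6), then 74.8 and 81.6 (EG). Its Day6 arrays stood apart above overlapping Day3 and EG arrays. Aff1, a subunit of transcription elongation complexes, read 5.59 and 7.13 for E11.5 PGC, 42.4 and 70.4 for Day3, 135 and 224 for Day6 and 44.3 and 52.2 for EG, with the same course, but its second probe did not show the level in EG. Others near the low end were Oas1a, an interferon-induced synthetase whose probe may see relatives (16.4 and 16.8 (E11.5 PGC), 68.8 and 229 (Day3), 513 and 592 (Day6), then 115 and 110 (EG)), and Ackr3, a scavenging chemokine receptor (17.7 and 20.8 for E11.5 PGC, 92.9 and 122 for Day3, 290 and 267 for Day6 and 89.5 and 125 for EG). Both had Day6 on top with Day3 and EG overlapping. Lpar1, a receptor for lysophosphatidic acid, and Mtus2, a microtubule protein, differed by -1.34 ± 0.40 and -1.35 ± 0.35. Nupr1 (2.70 ± 0.80), Fabp3 (2.12 ± 0.54), Kdelr3 (2.07 ± 0.60) and Pkp3 (1.74 ± 0.35) were high in EG over Day6 without passing the test.

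In EG against Day3, 11 members were called higher and none lower, against 1.05% and 0.37% of 20554 probes, and 84 (59.6%) had both EG arrays above both Day3 arrays, against 22.4%. In 15 (10.6%) both were below, against 27.6%. The median difference was 0.68, and -0.04 over all probes. The rule's floor on the mean in EG bears on this comparison too. It leaves out genes dim in EG, sets no floor at Day3 and was not applied to the probes beside the members. In order of size those called were Fez1 (3.54 ± 0.51, adjusted p = 0.0291), Upp1 (3.30 ± 0.52, 0.037), Ubd (3.23 ± 0.39, 0.018), Patl2 (2.98 ± 0.33, 0.0148), Urah (2.53 ± 0.45, 0.0497), 2410080I02Rik (2.45 ± 0.25, 0.0117), Hap1 and Ly75 (both 2.20), Prune2 (1.97), Ooep (1.92) and Tstd3 (1.73). Ubd, a ubiquitin-like modifier of immune cells, read 3.97 and 2.61 (E11.5 PGC), 18.4 and 15.8 (Day3), 101 and 51.9 (Day6), then 159 and 160 (EG). Ooep, a component of the maternal complex beneath the egg surface, read 281 and 269 for E11.5 PGC, 929 and 821 for Day3, 1926 and 2348 for Day6 and 3344 and 3290 for EG. Urah, which acts on a product of urate, read 19.4 and 9.15 (E11.5 PGC), 117 and 77.8 (Day3), 281 and 197 (Day6), then 657 and 463 (EG). In these 3 genes every later group cleared the one before. The count fell to 0 without Day3 replicate 1, without EG replicate 1 or without EG replicate 2, to 1 without Day3 replicate 2 and to 4 without either E11.5 PGC array. With the block it was 26, against 3.18% of probes higher and 2.5% lower.

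By group mean, few members were highest at Day3. The rule's floor on the mean in EG has no counterpart at Day3 or Day6. The named probes set beside the members did not have to meet the rule, so the shares are a description. The highest of the 3 later means was at Day3 in 11 members (7.80%, against 39.0% of named probes), at Day6 in 70 (49.6%, against 27.5%) and in EG in 60 (42.6%, against 33.5%). The lowest was at Day3 in 96 (68.1%, against 27.9%). Day3 arrays below Day6 arrays and these below EG arrays, with no overlap, were seen in 13 members (9.22%, against 2.73%): 2410080I02Rik, Cuedc1, Dnmt3l, Eras, Fez1, Gpx7, Hspb1, Klf9, Mapt, Ooep, Ubd, Upp1 and Urah. Klf9, a zinc finger factor with the second largest gap (4.31), read 11.7 and 11.6 for E11.5 PGC, 329 and 232 for Day3, 495 and 406 for Day6 and 806 and 859 for EG. Both Day6 arrays stood above all Day3 and EG arrays in 30 members (21.3%, against 6.13%), Bcat1, Slc6a8, Ccng1, Gsta4, Hspb8, Cidea and Pir among them. Such a margin can be small, and for Pir over EG it was close to a tie. In 12 (8.51%, against 29.4%) all 3 later groups overlapped, as in Anxa1, Anxa8, Cd63, Ptgr1 and Saa3.

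**Figure D5:**
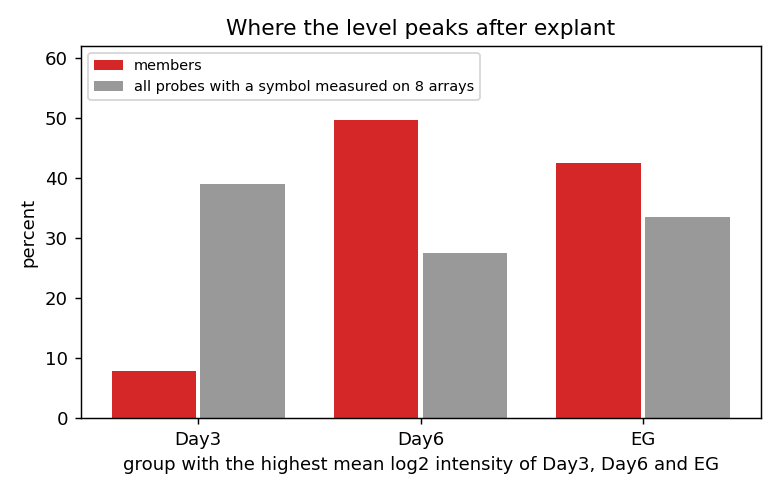
Percent of the 141 members (red) and of all named probes measured on 8 arrays (grey) whose highest mean of the 3 later groups is at Day3, Day6 or EG. The red bars are 7.80, 49.6 and 42.6%, and the grey bars 39.0, 27.5 and 33.5%. Only the members had to meet the rule, with its floor on the mean in EG.

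The remaining genes with large gaps were Spats1, named for a role in spermatogenesis, which read 2.93 and 2.41 (E11.5 PGC), 56.0 and 52.3 (Day3), 59.5 and 161 (Day6), then 58.1 and 89.4 (EG), Ak7, an adenylate kinase of cilia, and Hsd17b14, a steroid dehydrogenase. Ak7 read 2.57 and 2.43 for E11.5 PGC, 35.7 and 48.9 for Day3, 86.9 and 214 for Day6 and 113 and 157 for EG. Hsd17b14 read 2.85 and 3.59 (E11.5 PGC), 35.1 and 113 (Day3), 78.7 and 131 (Day6), then 158 and 141 (EG). In all 3 one array of a later group lay well above its partner. At the edge of the rule, Rwdd4a (gap 1.51), Cpt1c (1.51) and Ugdh (1.502) were just inside, and Chac1 (1.498), Gaa (1.49) and Stat3 (1.48) just outside. Cpt1c, a brain form of carnitine palmitoyltransferase, read 35.1 and 28.4 for E11.5 PGC, 124 and 99.6 for Day3, 122 and 112 for Day6 and 177 and 164 for EG. A further 14 genes met the gap but were too dim in EG, 29 of 5313 probes with no symbol met both conditions, and the reverse pattern of lasting losses held for 49 genes.

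Second probes did not always show the gain. For Stt3b, a subunit of the enzyme that attaches sugars to proteins, the probe used read 73.2 and 73.8 (E11.5 PGC), 609 and 672 (Day3), 738 and 843 (Day6), then 314 and 396 (EG), whereas the second read 168 and 224 for E11.5 PGC, 160 and 226 for Day3, 129 and 223 for Day6 and 92.2 and 139 for EG. For Ctu2, which modifies transfer RNA, the probe used read 27.5 and 21.8 (E11.5 PGC), 196 and 91.5 (Day3), 236 and 99.2 (Day6), then 247 and 208 (EG), and the second read 407 and 356 (E11.5 PGC), 130 and 158 (Day3), 91.5 and 200 (Day6), then 173 and 155 (EG). The second probe of Stt3b showed no gain and that of Ctu2 a lower level after explant, so both are uncertain members. For Aff1 the second probe read 3.16 and 2.47 for E11.5 PGC, 3.30 and 7.24 for Day3, 11.01 and 18.5 for Day6 and 3.30 and 4.37 for EG, close to the fresh cells in EG. For Prune2 the second probe had values on the Day3 arrays alone, 1.84 and 1.13. These genes are uncertain members too, including where they are counted among the calls. Close relatives may share the probes of Gstp2, Tubb2a, Tubb2b, Mt1, Saa3, Oas1a and Pramel7.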

How the data were processed

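Total RNA of 8 mouse samples was hybridised to one-colour TORAY oligonucleotide arrays after amplification and Cy5 labelling, per the labels' protocols. The authors deposited linear intensity per probe, scaled so that each array's median lies near 20; how background was corrected, how arrays were scaled and why 11674 cells are missing is not given in the sources used here. Deposited intensity was converted to log2 with no further normalization and missing values stayed missing. Symbols came from the platform annotation, updated through the mouse gene table: 12622 probes had a current symbol, 3947 matched a synonym, 62 were kept as given and 6842 had none. The brightest probe meeting the rule stood for a gene. Sequences are from RefSeq (GRCm38.p6).

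Differences among Day6, Day3 and EG were tested with limma 3.58.1 (lmFit and eBayes) in R 4.3.3 on all 8 arrays and 4 groups, two-sided, with Benjamini-Hochberg adjustment over all probes measured on both arrays of both groups, at an adjusted p under 0.05. The script was tested on simulated data with changes planted at Day6. For Day6 against Day3 it called 43 of 100 changes of 2 log2 units and 81 of 100 of 4. The test therefore misses many changes of the size seen among the members. A second model had the array series as a block. Deviations of replicate 1 from its group mean correlated across 19524 probes at 0.62 between E11.5 PGC and Day3, 0.55 between E11.5 PGC and Day6 and 0.69 between Day3 and Day6, and at -0.025 to 0.061 with EG; the array names are where this pairing comes from. For EG, with arrays in the first series only, blocked values assume an equal series difference in all groups.

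Members and lists were chosen with earlier results of these data known. Named genes are the 20 with the largest gap, members standing in a list, the 6 highest and 6 lowest differences for Day6 over Day3 and EG over Day6, those called there, the 3 on either side of the gap threshold and the 5 brightest in EG; others were named after their values were seen, those called in EG against Day3 included. Alternatives were quantile normalization, median centring, a pseudocount of 1.61, removal of probes with a mean log2 under the lower quartile, trended and robust variance, fits on 2 groups, the block and leaving out each array. The number of arrays limits the precision.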

Additional observations from a re-analysis of the deposited data

How the results depend on the processing

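Over 67 gene comparisons (members called with or without the block, and those highest or lowest for Day6 over Day3 and EG over Day6), 1276 values stayed on their side of the threshold, 154 passed it, 109 lost the call and 2 were reversed. Both were S100a4 for Day6 over Day3, a log2 difference of 2.34 that was -0.99 without Day6 replicate 1 (-0.26 with the replicate block) and 5.67 without Day6 replicate 2. The members' median for EG over Day6, -0.11, was 0.02 without Day6 replicate 1 and 0.01 without EG replicate 1. For Day6 against Day3 the count of members called was 0, and 1 with a pseudocount, 1 with trended and robust variance and 19 with the array series as a replicate block; leaving out single arrays gave 0 throughout, and with the block 10 without an E11.5 PGC array, 5 without an EG array and 0 without any Day3 or Day6 array. For EG against Day6 the count was 1, and 3 with a pseudocount, 2 without probes under the lower quartile, 4 with the replicate block and 0 on the arrays of both groups only; leaving out single arrays gave 0 to 1, and 0 to 3 with the block. For EG against Day3 the count was 11, and 17 after quantile normalization, 20 with a pseudocount, 17 without probes under the lower quartile, 18 with trended and robust variance, 26 with the replicate block and 6 on the arrays of both groups only; leaving out single arrays gave 0 to 13, and with the block 24 without an E11.5 PGC array, 21 without a Day6 array, 11 or 0 without a Day3 array and 5 or 3 without an EG array. Shares over all probes are given for the main and the blocked model on all arrays only. A count that changed under another setting therefore cannot be read as particular to the members. Fewer arrays leave fewer residual degrees of freedom, and a lone array is assumed to vary like the other groups. Otherwise the cause was not tested. The rule itself took 81 genes with a gap of at least 2 and 249 with a gap of at least 1. It took 148 after quantile normalization (137 of the 141 among them), 149 after median centring (139), 124 with a pseudocount (124), 146 to 191 without single arrays, 166 within each array series and 140 when the brightest probe of a gene was taken first, which drops Ctu2. The blocked fits with an array left out and the reading by brightest probe were added after seeing the data. Members dim in E11.5 PGC are the ones the treatment of low signal can move.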

Other observations

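The rule needs a value on every array and so cannot take genes missing in the fresh cells. Prl2c5, a prolactin family member whose probe may see relatives, had no value on either E11.5 PGC array and read 70.0 and 10.6 (Day3), 47.1 and 2.27 (Day6) and 441 and 97.1 (EG). The first array was the brighter in each group. Tgm2, a transglutaminase that crosslinks proteins, lacked 1 E11.5 PGC value, read 3.48 on the other, and read 4.45 and 9.26 (Day3), 10.9 and 13.3 (Day6) and 30.7 and 67.1 (EG). In all, 16 probes lacked both E11.5 PGC values and had the 6 others, and 2 of these reached the mean in EG that the rule asks for. These genes were named after their values were seen.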
